A study of Mus musculus with 16 samples.

Results

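The genes described here encode the heat shock chaperones of the cytosol and the mitochondrion, with their co-chaperones and the heat shock transcription factors. They were chosen by symbol from a list of 39 genes, and 36 of them had at least 1 probe set naming that gene alone, among 18194 genes measured. The remaining 3 genes, the master regulator gene Hsf1, the constitutive cytosolic chaperone gene Hsp90ab1 and Ptges3 (p23), were not analysed here. The 2 probe sets listed for Ptges3 also name a pseudogene, and no probe set was matched to Hsf1 or Hsp90ab1. The study compared liver of 8 male KK-Ay mice fed a diet supplemented with 0.1% maple syrup extract (MSE) with liver of 8 male KK-Ay mice fed the normal diet. KK-Ay mice carry the yellow agouti allele and become obese and diabetic, and this background was common to both diets. The mice were housed singly, pair-fed for 43 days after 1 week of acclimation, and killed at 11 weeks of age after 16 h without food. Each array held RNA of 1 mouse, and the question is which liver transcripts differ when the diet holds the extract.

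Chaperones bind unfolded protein and release it in cycles driven by ATP. HSP70 proteins take up substrate that J-domain proteins deliver, exchange factors such as HSP110 reset them, and HSP90 receives part of the clients through adaptor co-chaperones. In stress, HSF1 trimers bind repeats of the unit NGAAN upstream of the inducible members and raise their transcription, while other members are made at a steady rate in most cells, hepatocytes included.

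The deposited values lie on a log2-like scale, and their spread is very small, with a median within-diet SD over all genes of 5.60e-06 log2 units. No transcript fold can be read from values this close together. Each contrast is given as a standardized difference, the MSE mean minus the normal-diet mean divided by the pooled SD within diets, and single mice as deviations from the mean of all 16 mice in the same SDs. Because liver was measured in bulk, fewer cells of a type and less RNA per cell cannot be told apart.

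No chaperone gene passed the test of the diets. In the limma fit over all 18194 genes, 0 of 36 chaperone genes had an adjusted p under 0.05 (background 0%), and their adjusted p ran from 0.555 to 0.999. At limma's unadjusted p under 0.05, 4 genes were higher with MSE (11.1% of 36, background 2.59%) and 3 were lower (8.33% of 36, background 4.07%), where 6.66% of all genes passed in either direction. The higher genes were St13, Hspd1, Hspe1 and Dnajb1, and the lower ones were Hspa14, Dnaja2 and Hspb6. By sign alone 22 were higher and 14 lower, where 48.3% of all genes were higher and 51.7% lower. The median standardized difference was 0.27 over the 36 genes and -0.02 over all genes. That median was 0.10 without MSE replicate 8, 0.11 without normal-diet replicate 1, 0.40 without either MSE replicate 5 or 7, and 0.077 with array weights. The count of 4 higher genes rested on single mice. It was 2 without MSE replicate 1, 1 without MSE replicate 3 and 7 without MSE replicate 6, and it was 1, 2 and 2 without normal-diet replicates 3, 4 and 7. With the replicate block it was 1, with array weights 1 and after quantile normalization 2, and the count of 3 lower genes was 0 after quantile normalization and 0 after centring. The split by sign depended on scaling, with 24 of 34 genes higher after quantile normalization (47.6% of all genes with a value). That 24 counts Hspe1, whose diet means were equal there but for rounding. After centring on array medians 33 of 36 were higher (92.6% of all genes). Centring removes from every gene the array-median shift between diets of -1.31e-05 log2 units (MSE minus normal). Under 1 or both of these scalings 14 genes turned direction, and 22 kept it where a value existed, 19 of them higher and 3 lower. Hspe1, Hspd1 and Hspa8 are among the 19 by their centred values only, since quantile normalization gave no value for Hspd1 and Hspa8. Since centring raises every MSE minus normal difference by the same amount, no gene higher as deposited can turn under it. The turns under centring, and the direction that higher genes keep under it, are therefore no result about the chaperones. Of the 27 genes with more than 1 probe set, 10 had all of them in the same direction.

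**Figure D1:**
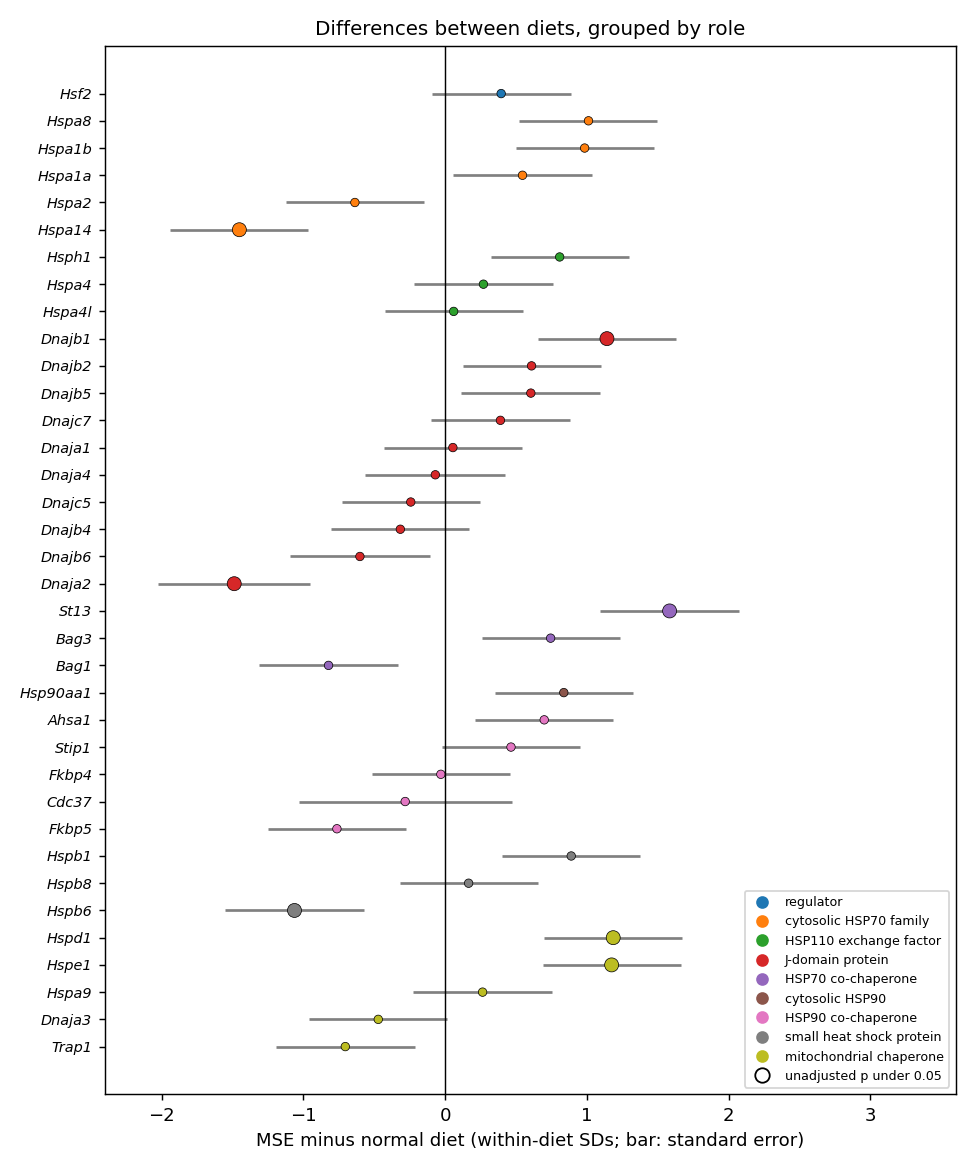
Standardized difference between diets (x axis, MSE minus normal diet in within-diet SDs) for the 36 measured genes, grouped and coloured by role, with bars for the standard error and larger points for an unadjusted p under 0.05. The highest gene is St13 at 1.58 and the lowest is Dnaja2 at -1.49.

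Values above the whole normal-diet range came mainly from 4 MSE mice. MSE replicate 8 lay above all 8 normal-diet mice in 16 of the 36 genes, MSE replicate 3 in 15, MSE replicate 1 in 13 and MSE replicate 4 in 9. The other 4 MSE mice did so in 3 genes or fewer. At the low end, normal-diet replicate 1 lay below all 8 MSE mice in 16 genes and normal-diet replicate 3 in 13. In the other direction, MSE replicate 1 lay below all 8 normal-diet mice in 8 genes, and MSE replicates 5 and 6 in 7 each. Normal-diet replicate 7 lay above all 8 MSE mice in 6 genes, the most of its diet. The same counts over all genes were not computed, so those of single mice have no background. In 11 genes (30.6% of 36; background 10.3%) at least 3 MSE mice exceeded the highest normal-diet mouse. These were Hspa1b, Hspa4l, Hspa8, Hspa9, Hsp90aa1, Hspd1, Hspe1, Hsph1, Dnajb1, St13 and Bag3. On the low side, 5 MSE mice lay below the lowest normal-diet mouse for Hspa14, and 4 for Hspb6 and for Dnaja2. For Dnajb4, Dnajb6 and Bag1 it was 3 MSE mice each. The share of all genes on the low side was not computed. The diets overlapped in all 36 genes.

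**Figure D2:**
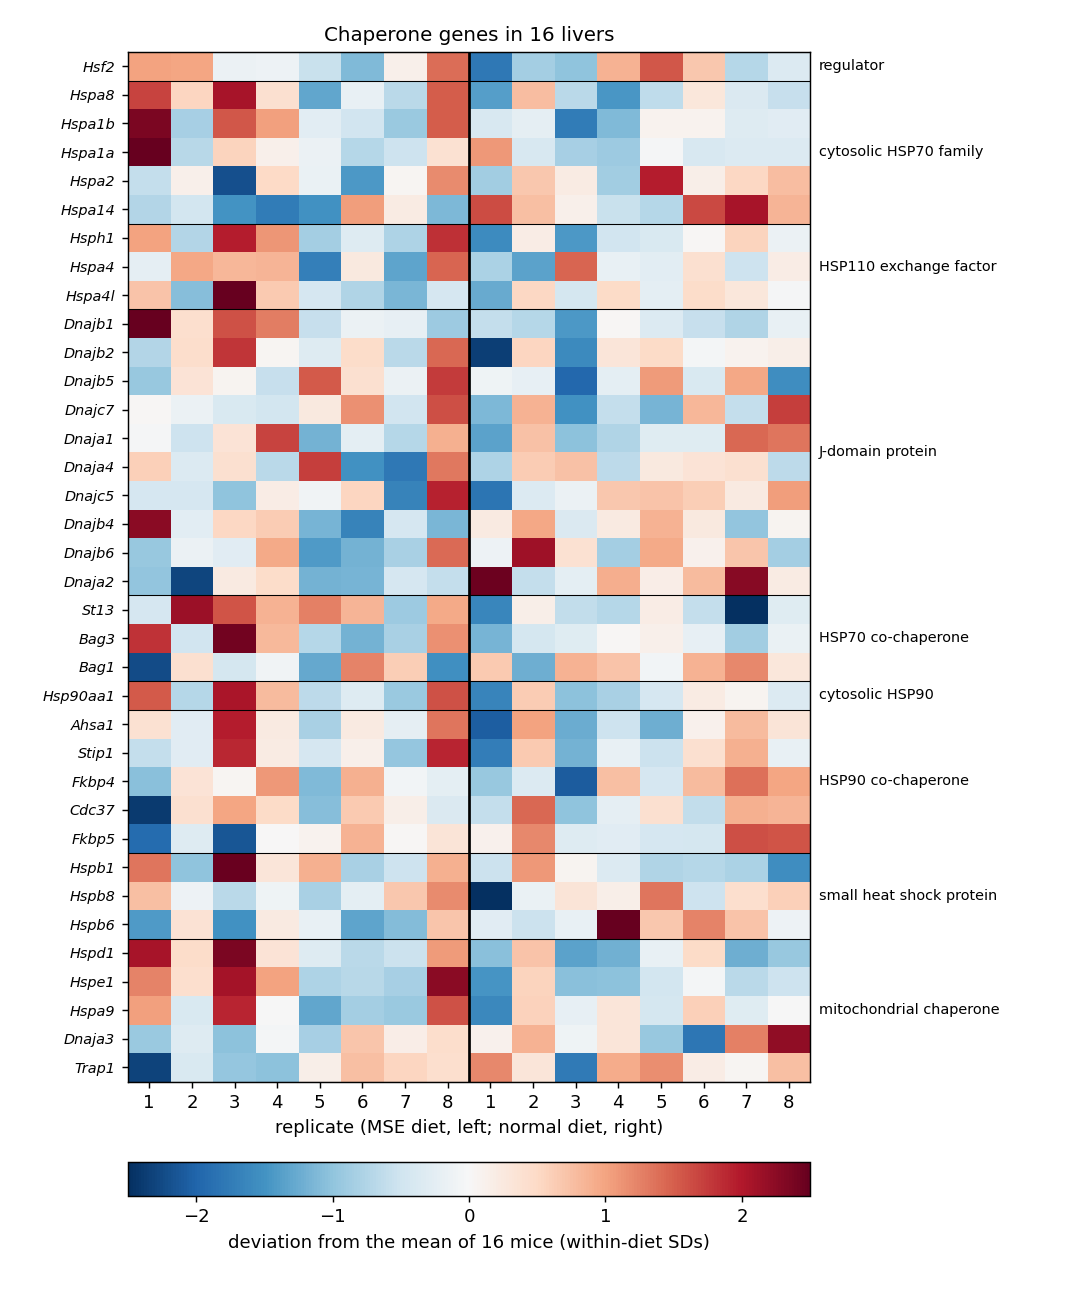
Deviation of each mouse from the mean of 16 mice, in within-diet SDs (colour, capped at the ends of the scale), for 36 genes in rows grouped by role and 16 mice in columns, MSE diet left of the line and normal diet right of it. The columns of MSE replicates 1, 3 and 8 are red in Hspa8, Hsp90aa1, Hsph1, Hspd1, Hspe1 and Bag3, while Dnajb1 is blue in MSE replicate 8 (-0.92 SDs) and Hspb1 is red in MSE replicate 5 (0.89 SDs).

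Among the cytosolic HSP70 genes, the constitutive Hspa8 and the inducible pair Hspa1a and Hspa1b were higher with MSE, and Hspa2 and Hspa14 were lower. Hspa8 (HSC70) clears clathrin coats and folds new proteins. In within-diet SDs it lay at -1.30, 0.47 and 2.07 (lowest, median and highest) in MSE mice, against -1.46, -0.61 and 0.77 in normal-diet mice. Its standardized difference was 1.01 (limma unadjusted p 0.0557, adjusted p 0.755), with the MSE mouse higher in 48 of 64 pairs of 1 mouse from each diet. Of its 4 probe sets, a second reached an unadjusted p of 0.0227 at 1.23 SDs higher, while the one with the lowest level was 0.50 SDs lower. Quantile normalization left the chosen Hspa8 probe set with the same value in all arrays, so it gave no difference there.

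Hspa1b, the classic heat-induced HSP70, varied more than nearly all other genes, with a within-diet SD of 0.0367 log2 units, at the 99.9th percentile of all genes. Its mean was 8.22 ± 0.0465 (SD, n = 8) in MSE mice and 8.18 ± 0.0231 (SD, n = 8) in normal-diet mice, on the deposited log2-like scale. Single values were 8.168, 8.216 and 8.288 (lowest, median and highest) in MSE mice, against 8.137, 8.191 and 8.205 in normal-diet mice. MSE replicates 1, 3, 4 and 8 exceeded every normal-diet mouse, and the other 4 MSE mice lay within the normal-diet range. The difference of 0.98 SDs, higher in 43 of 64 pairs, did not pass (limma unadjusted p 0.0618, adjusted p 0.771), and all 3 probe sets of the gene were higher. Hspa1a, its near-identical neighbour, was 0.55 SDs higher (41 of 64 pairs). Its level of 6.08 log2 units lay below the median of 6.35 over all genes, and its within-diet SD was 0.000154 log2 units. The difference was 0.22 SDs without MSE replicate 1, which stood at 3.19 SDs, above the other MSE mice at 0.56 or less. The upstream sequences of the 2 genes show how alike the copies are before their starts. Transcript and probe sequences were not compared, and hybridisation of one transcript to probes of the other cannot be told apart here. The stretch from -140 to -21 relative to the start of Hspa1b (RefSeq, GRCm38.p6, chr17:34959259-34959378, minus strand) is given with its match to the inverted pair of heat shock units, GAANNTTC, in capitals.
Hspa1b: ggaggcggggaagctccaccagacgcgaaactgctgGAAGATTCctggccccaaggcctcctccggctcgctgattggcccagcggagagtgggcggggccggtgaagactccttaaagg
The same stretch of Hspa1a (chr17:34972177-34972296, minus strand) was identical at all 120 bases, and the 300-base windows of the 2 genes at 296 of 300.

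The lower HSP70 family genes were Hspa14 and Hspa2. Hspa14, an HSP70-like protein of the ribosome-associated complex, lay at -1.74, -0.93 and 1.04 SDs in MSE mice (lowest, median and highest), against -0.71, 0.80 and 2.06 SDs in normal-diet mice. Its standardized difference was -1.45 (limma unadjusted p 0.00946, adjusted p 0.606), lower in 54 of 64 pairs, and 5 MSE mice lay below the lowest normal-diet mouse. Centring left the difference at -0.38 SDs, and another of its 3 probe sets was 0.53 SDs higher. Hspa2, an HSP70 best known from spermatogenesis, had a standardized difference of -0.64 (unadjusted p 0.212), which turned direction after centring on array medians. Its level of 5.77 log2 units lay below the lower quartile of 5.87 over all genes.

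The HSP110 proteins exchange nucleotide on HSP70 and help it dissolve aggregates. Hsph1, the inducible HSP110, was 0.81 SDs higher (limma unadjusted p 0.118, adjusted p 0.831), in 42 of 64 pairs. Its single mice lay at -0.84, 0.35 and 1.96 SDs in MSE mice, against -1.56, -0.27 and 0.56 SDs in normal-diet mice, with MSE replicates 1, 3, 4 and 8 above every normal-diet mouse. Both of its probe sets were higher. Just after one of its listed starts (RefSeq, GRCm38.p6, chr5:149636287-149636308, minus strand) lies a match to a run of 3 units, TTCNNGAANNTTC, shown in capitals because this is one of the few chaperone genes with such a run.
Hsph1: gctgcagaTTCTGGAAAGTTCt
Hspa4 and Hspa4l, the other HSP110 genes, were 0.27 and 0.06 SDs higher, and Hspa4l turned direction after quantile normalization and, at -0.46, without MSE replicate 3.

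J-domain proteins hand substrate to HSP70 and start its ATP hydrolysis. Of the 10 measured, not counting Dnaja3, which is described with the mitochondrial chaperones, 5 were higher and 5 lower, with a median of -0.01 SDs. Dnajb1 (HSP40), the heat-induced partner of HSP70, was higher with MSE. Its mice lay at -0.92, 0.14 and 3.11 SDs with MSE, against -1.43, -0.59 and 0.04 SDs on the normal diet. The difference of 1.14 SDs (limma unadjusted p 0.0335, adjusted p 0.716) held in 51 of 64 pairs. The highest value came from MSE replicate 1, and the lowest MSE value from replicate 8, which was among the high mice for Hspa1b. The SD of Dnajb1 was 3.04 times as large in MSE mice as in normal-diet mice, and its second probe set was 0.60 SDs higher.

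Dnaja2, a constitutive partner of HSC70, lay at -2.29, -0.79 and 0.45 SDs in MSE mice, against -0.59, 0.50 and 2.46 SDs in normal-diet mice. Its standardized difference was -1.49 (limma unadjusted p 0.0144, adjusted p 0.629), lower in 54 of 64 pairs, but the sign turned after quantile normalization (0.47) and after centring (0.35). The within-diet SD of Dnaja2 was 1.58e-06 log2 units, at the 8.12th percentile of all genes, so the common shift of centring was larger than its difference. Of its 4 probe sets 3 were lower and the other was at 0.27 SDs. Dnajb2 and Dnajb5 had standardized differences of 0.61 and 0.60, and Dnajc7, which also binds HSP90, of 0.39. Dnaja1, a farnesylated partner of HSC70, was at 0.05 and Dnaja4 at -0.07, both of which turned direction after quantile normalization. Dnajc5 (cysteine string protein) was at -0.24, Dnajb4 at -0.32 and Dnajb6, a suppressor of aggregation, at -0.60. Of these Dnajb4 kept its direction after centring and quantile normalization. Dnajc5 turned after centring and Dnajb6 after both. Another probe set of Dnajb6 was 1.44 SDs lower (unadjusted p 0.0101).

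Among the HSP70 co-chaperones, St13 (HIP), which stabilises HSP70 in its substrate-bound state, had the smallest p of all 36 genes. It lay at -0.90, 0.91 and 2.13 SDs in MSE mice, against -2.82, -0.61 and 0.19 SDs in normal-diet mice, and 6 of 8 MSE mice exceeded the highest normal-diet mouse. The standardized difference was 1.58 (limma unadjusted p 0.00579, adjusted p 0.555), in 55 of 64 pairs. It was 0.30 after quantile normalization and 0.69 after centring, and all 3 probe sets were higher. In this gene the highest mouse was MSE replicate 2, which was low for Hspa1b and Hsph1. Bag3, an inducible exchange factor that routes clients to autophagy, was 0.74 SDs higher (unadjusted p 0.148), with MSE replicates 1, 3, 4 and 8 again above every normal-diet mouse and an SD 3.06 times as large with MSE as on the normal diet. Bag1, which links HSP70 to the proteasome, had a standardized difference of -0.82 (unadjusted p 0.113) and turned after centring.

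The inducible cytosolic HSP90 gene, Hsp90aa1, was high in MSE replicates 1, 3 and 8, as Hspa8 was. Its mice lay at -0.92, 0.24 and 2.04 SDs with MSE, against -1.66, -0.38 and 0.64 SDs on the normal diet, and MSE replicates 1, 3, 4 and 8 were above every normal-diet mouse. It was 0.84 SDs higher (limma unadjusted p 0.106, adjusted p 0.815) in 45 of 64 pairs. The difference was 0.66 SDs without MSE replicate 3 and 1.07 SDs without MSE replicate 7, and 0.20 SDs after quantile normalization. Of its 5 probe sets 4 were higher.

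The HSP90 co-chaperones were mixed. Ahsa1, which activates the HSP90 ATPase, was 0.70 SDs higher, and Stip1 (HOP), which joins HSP70 to HSP90, 0.46 SDs higher, with unadjusted p of 0.172 and 0.355. Cdc37, the adaptor for kinase clients, and the immunophilin gene Fkbp4, which serves steroid receptors, were at -0.28 and -0.03 SDs, and both turned direction after each of the scalings. Fkbp5, the immunophilin that glucocorticoids induce and that dampens their receptor, had a lower mean with MSE but not a lower median. Its mean on the deposited scale was 7.65 ± 0.00855 (SD, n = 8) in MSE mice and 7.66 ± 0.00735 (SD, n = 8) in normal-diet mice, a difference of -0.76 SDs (unadjusted p 0.138). MSE replicates 1 and 3 were the lowest of all 16 mice for Fkbp5, at -1.92 and -2.14 SDs, and the other 6 MSE mice lay between -0.32 and 0.87 SDs. The median was 0.03 SDs in MSE mice and -0.09 SDs in normal-diet mice. Of its 3 probe sets 2 were lower, and the one with the lowest level was at 0.71 SDs.

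Small heat shock proteins hold unfolded protein in large oligomers without ATP. Hspb1 (HSP25), the inducible one, lay at -1.002, 0.59 and 2.47 SDs in MSE mice, against -1.55, -0.62 and 1.08 SDs in normal-diet mice. It was 0.89 SDs higher (limma unadjusted p 0.0880, adjusted p 0.799) in 44 of 64 pairs, and both probe sets were higher. Its upstream stretch from -140 to -21 relative to the start (RefSeq, GRCm38.p6, chr5:135887779-135887898, plus strand) holds the GAANNTTC pair at 2 places, in capitals.
Hspb1: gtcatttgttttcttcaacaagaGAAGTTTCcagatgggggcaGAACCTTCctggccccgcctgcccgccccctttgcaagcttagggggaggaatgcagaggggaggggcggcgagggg
Hspb6, a muscle-rich member, lay at -1.52, -0.63 and 0.69 SDs in MSE mice, against -0.54, 0.27 and 2.77 SDs in normal-diet mice. Its standardized difference was -1.06 (limma unadjusted p 0.0461, adjusted p 0.739), lower in 48 of 64 pairs, and it turned to 0.09 after centring. Hspb8, the partner of BAG3, was at 0.17 SDs, but at -0.34 SDs without normal-diet replicate 1 and -0.02 SDs with array weights, and both of its other probe sets were lower (-0.16 and -0.29 SDs).

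In the mitochondrion, Hspd1 (HSP60) forms the folding chamber and Hspe1 (HSP10) its lid. Both were higher with MSE. Hspd1 lay at -0.68, 0.40 and 2.35 SDs in MSE mice, against -1.34, -0.99 and 0.72 SDs in normal-diet mice, with 5 normal-diet mice below the lowest MSE mouse. Its standardized difference was 1.19 (limma unadjusted p 0.0281, adjusted p 0.700), in 51 of 64 pairs. Hspe1 lay at -0.84, 0.71 and 2.26 SDs in MSE mice, against -1.48, -0.60 and 0.56 SDs in normal-diet mice. The difference was 1.17 SDs (limma unadjusted p 0.0294, adjusted p 0.707), in 48 of 64 pairs, and its second probe set was 1.15 SDs higher. After quantile normalization Hspd1 had the same value in all arrays and the diet means of Hspe1 were equal, so those scaled values show no difference.

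Hspd1 and Hspe1 lie head to head, and a listed Hspd1 window shares 285 bases with that of Hspe1. The run of 3 heat shock units was found in this shared stretch, and 30 bases around it are given on the Hspe1 strand (RefSeq, GRCm38.p6, chr1:55088050-55088079, plus strand), with 2 overlapping matches in capitals.
Hspe1: cacggtccgTTCTAGAACCTTCCGGAAggc
The other mitochondrial chaperones had smaller or negative differences as deposited. Hspa9 (mortalin), the HSP70 of the matrix, was at 0.26 SDs, with MSE replicates 1, 3 and 8 above all normal-diet mice as in Hspd1, and at 0.01 SDs without MSE replicate 3. Of the 5 probe sets of Hspa9, 3 were higher and the others were at -0.33 and -0.97 SDs. Dnaja3, its J-domain partner, was at -0.47 SDs and Trap1, the mitochondrial HSP90, at -0.70 SDs, and both were positive after quantile normalization (0.53 and 0.94) and after centring (0.25 and 0.22). The heat shock factor gene Hsf2 was at 0.40 SDs and turned after quantile normalization.

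**Figure D3:**
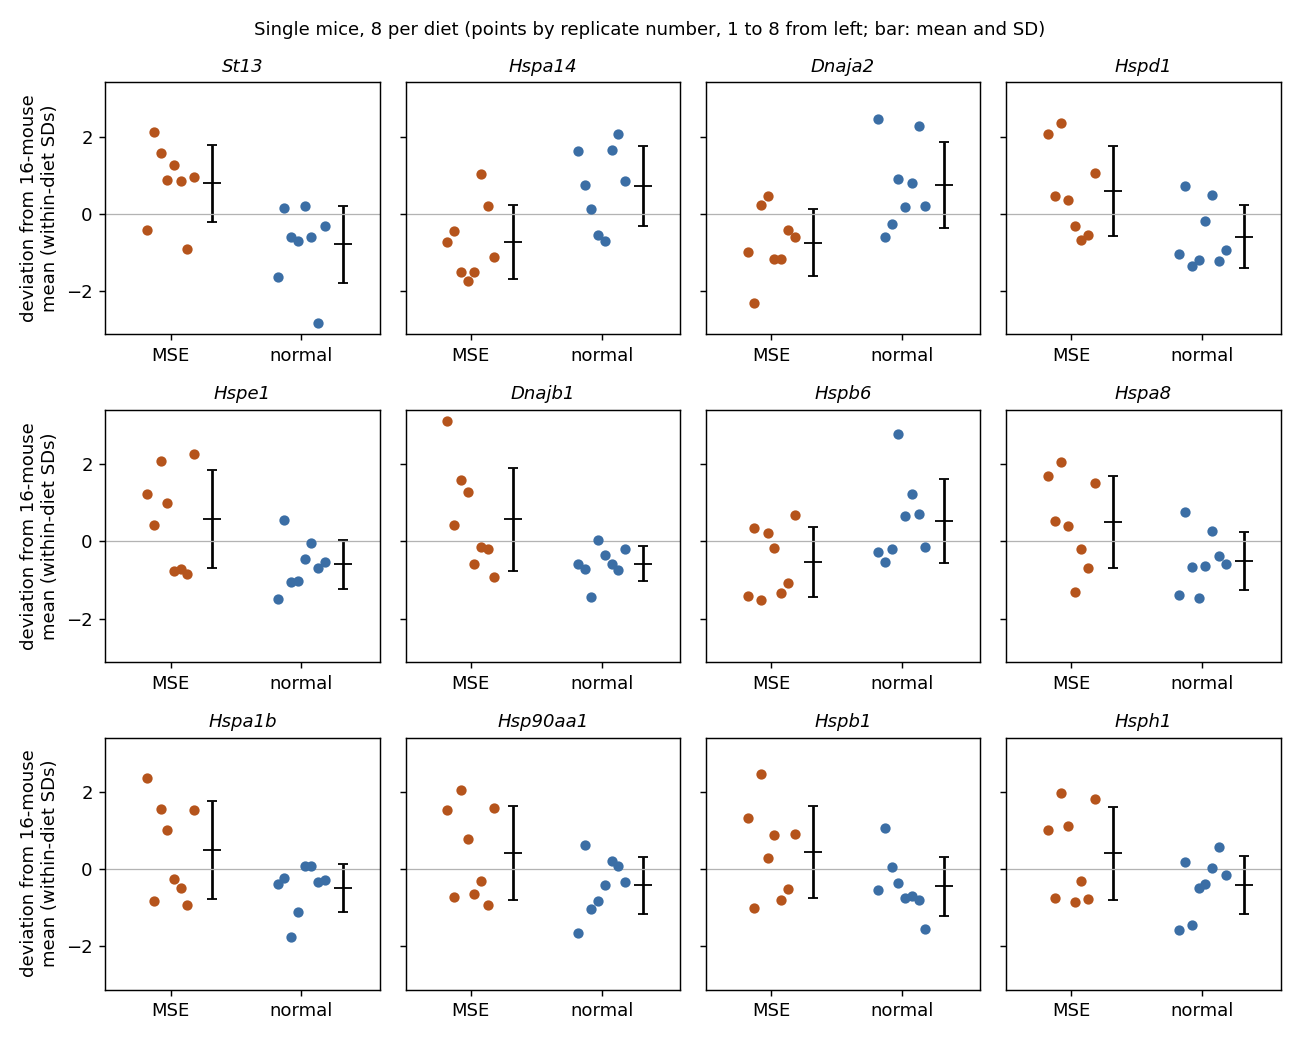
Single mice for 12 genes, with deviation from the mean of 16 mice in within-diet SDs on the y axis, MSE diet left of normal diet in each panel, points by replicate number and bars for the mean and SD of 8 mice. In Hspd1, Hspe1, Hspa8, Hspa1b, Hsp90aa1 and Hsph1 the MSE mice spread widely, with part of them above and part of them within the normal-diet range.

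Pairs of chaperone genes varied together across mice after the diet means were removed. Of 7 pairs chosen for their biology, 6 could be computed, over 16 mice with 100000 permutations within diets and Benjamini-Hochberg adjustment over the 6, and the pair with Hsp90ab1 could not. Hsp90aa1 and Hsph1 had a Pearson r of 0.95 (permutation adjusted p 6e-05, from the smallest p that the permutations can give) and a Spearman rho of 0.94 (adjusted p 0.00012). That pair had an r of 0.98 within MSE mice and 0.90 within normal-diet mice. Hspd1 and Hspe1 had an r of 0.85 (permutation adjusted p 0.00034) and a rho of 0.91 (adjusted p 0.00015), with 0.86 within MSE mice and 0.87 within normal-diet mice. Hspa8 and Hsph1 had an r of 0.79 (permutation adjusted p 0.00235) and a rho of 0.83 (adjusted p 0.00126), with 0.86 and 0.62 within MSE and normal-diet mice. Hspa1a and Hspa1b had an r of 0.76 (permutation adjusted p 0.00034) and a rho of 0.81 (adjusted p 0.00136), with 0.84 and 0.45 within MSE and normal-diet mice.

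The co-variation of 2 of these 4 pairs depended on the processing. Hsp90aa1 and Hsph1 had an r of 0.58 (permutation adjusted p 0.0633) after quantile normalization, and Hspa8 and Hsph1 an r of 0.46 (permutation adjusted p 0.109) with the mean of probe sets. After quantile normalization, Hspa1a and Hspa1b had an r of 0.72 (permutation adjusted p 0.0018). The pair of Hspd1 and Hspe1 and that of Hspa8 and Hsph1 could not be computed in that setting. Without the 2 mice farthest from the median of the first gene, r was 0.93 for Hsp90aa1 and Hsph1, 0.84 for Hspd1 and Hspe1, 0.72 for Hspa8 and Hsph1 and 0.93 for Hspa1a and Hspa1b. The pair of Hspa1b and Dnajb1 did not pass, with an r of 0.60 (permutation adjusted p 0.0682) and a rho of 0.54 (adjusted p 0.0975), 0.63 within MSE mice and 0.43 within normal-diet mice, and its r of 0.14 without MSE replicates 1 and 3 shows that it rests on those mice. Hsph1 and Cirbp, a gene for an RNA-binding protein that cold induces, had an r of -0.27 (permutation adjusted p 0.356) and a rho of -0.16 (adjusted p 0.584), with -0.29 and -0.22 within MSE and normal-diet mice and -0.28 without the 2 farthest mice. The 2 values of a point come from 1 array, so they share that array's RNA and scaling.

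**Figure D4:**
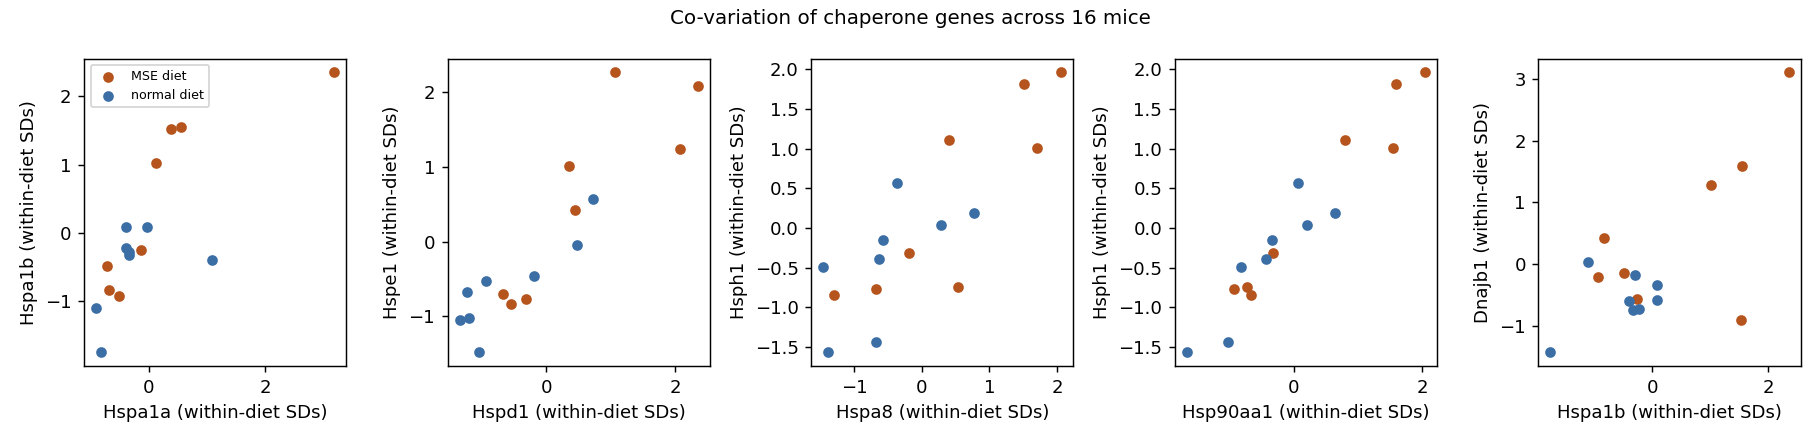
The 5 gene pairs within the chaperone list, 1 point per mouse, with both axes as deviation from the mean of 16 mice in within-diet SDs and colour for diet. Hsp90aa1 and Hsph1 lie close to a line in both diets, and in the panel of Hspa1b and Dnajb1 the relation rests on the mice at the upper right.

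Matches to heat shock units were more frequent near the starts of these genes than near those of all genes. Windows of 300 bases, 250 before and 50 after each listed start, were given for 31 of the 36 genes (44 windows), all but Hspa8, Hspa9, Hsp90aa1, Dnajc5 and St13. The pair of units, GAANNTTC or TTCNNGAA on either strand, was found in 38.6% of their windows, against 15.1% of all 32851 mouse windows. By gene, 15 of the 31 held it, against 17.0% of all genes. Windows of the same gene can overlap, as in Hsph1 and Dnajb6, so the same match can count in more than 1 window. The run of 3 units, GAANNTTCNNGAA or TTCNNGAANNTTC, overlaps the pair and was found in 4 of the 31 genes, against 0.662% of all genes. These were Hspd1, Hspe1, Hsph1 and Dnajb6, and Hspd1 and Hspe1 share the same stretch and its run. The 15 genes with the pair had a median standardized difference of 0.17 (9 higher), and the 16 without it 0.16 (9 higher). A match is a run of letters in this window and not a measured binding site.

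The members also differed widely in spread. Their median within-diet SD was 2.19e-05 log2 units, against 5.60e-06 for all genes, 16 of 36 lay above the 90th percentile and 4 above the 99th, namely Hspa1b, Fkbp5, Hsph1 and Hsp90aa1. The SD was larger in MSE mice for 23 of 36 genes (51.5% of all genes), with a median ratio of 1.19, MSE over normal, against 1.02 over all genes. In the authors' deposited table, 11 of the 36 genes had a false discovery rate under 0.05 for higher expression with MSE, 30.6% against a background of 2.52%. In the authors' deposited table these were Hspa1a, Hspa1b, Hspa8, Hsp90aa1, Hspb1, Hspd1, Hspe1, Hsph1, Dnajb1, Bag3 and Fkbp5. All 11 had a within-diet SD at or above the 87.5th percentile, and among the 2279 genes with a spread that large the authors' deposited table gave such a rate to 19.5%. That cut was set from the 11 genes themselves, and the 30.6% is a share of all 36 genes, whatever their spread. The 30.6% and the 19.5% are therefore not shares of like sets. For lower expression the authors' deposited table had 4 genes under 0.05 (background 3.76%), Hspa1b, Hspa14, Dnajb4 and Fkbp5, so that Hspa1b and Fkbp5 passed in both directions. St13, with the smallest limma p, had a rate of 0.566 for higher expression in the authors' deposited table.

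**Figure D5:**
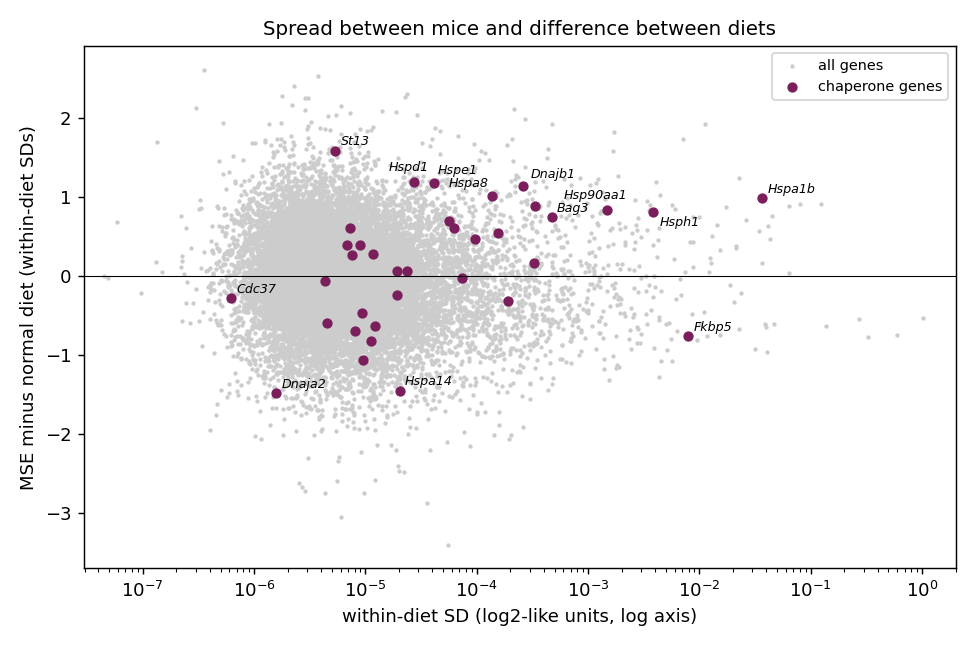
Within-diet SD (x axis, log2-like units on a log axis) against the standardized difference between diets (y axis, in within-diet SDs) for all 18194 genes in grey and the 36 chaperone genes in purple. Hspa1b, Hsph1, Hsp90aa1 and Fkbp5 lie at the right, among the genes with the largest spread between mice, and St13 and Dnaja2 lie at a much smaller spread.

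Related genes of protein folding gave the following counts at limma's unadjusted p under 0.05, with 0 called over all genes. The background at that p was 2.59% of all genes higher and 4.07% lower. Of 33 other HSP70 and HSP90 partners measured, 1 was higher and 1 lower (median -0.23 SDs). The higher one was Chordc1, an inducible HSP90 partner, at 1.20 SDs in 50 of 64 pairs, which kept its direction after quantile normalization and centring. The lower one was Dnajc9, a histone chaperone, at -1.16 SDs, which turned after centring. Of 15 subunits of the cytosolic chaperonin CCT and of prefoldin, 3 were higher and 0 lower (median 0.03 SDs). These were the CCT subunit genes Cct4, Cct3 and Tcp1, at 1.45, 1.17 and 1.06 SDs. After quantile normalization they were at 0.60, 1.10 and 0.30 SDs, and after centring at 0.81, 0.88 and 0.64 SDs. Of 20 genes of mitochondrial import and quality control, 2 were higher and 2 lower (median 0.14 SDs). Grpel1 and Grpel2, the exchange factors of mitochondrial HSP70, were 1.37 and 1.22 SDs higher. After quantile normalization they were at 0.14 and 0.76 SDs, and after centring at 0.55 and 1.62 SDs. Pmpcb, of the presequence peptidase, and the protease gene Lonp1 were at -1.49 and -1.13 SDs, and quantile normalization turned both and centring turned Pmpcb.

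Of 15 further genes that HSF1 or general stress induces, 1 was higher (Chordc1 again; background 2.59%) and 1 lower (background 4.07%; median -0.14 SDs). The lower one was Ier5, at -1.08 SDs as deposited and 0.13 SDs after quantile normalization. Of 16 glucocorticoid-responsive genes, the class to which Fkbp5 belongs, 2 were lower and 0 higher, against a background of 4.07% lower and 2.59% higher. By sign 14 were lower (51.7% of all genes; median -0.36 SDs), with 8 of 12 lower after quantile normalization (52.4% of all genes) and 10 of 16 after centring (7.39% of all genes). The 2 lower at that p were the kinase gene Sgk1 at -1.21 SDs and Tat, the tyrosine aminotransferase, at -1.05 SDs. The count after centring depends on spread, since the common shift of -1.31e-05 log2 units can turn only a difference smaller than itself. Sgk1 and Tat had within-diet SDs of 0.000241 and 0.00139 log2 units, against a median of 5.60e-06 over all genes. The 10 of 16 and the 7.39% are therefore not shares of like sets. The 2 measured temperature-responsive genes, Cirbp and Srsf5, were at -0.24 and -0.16 SDs.

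Tissue and RNA quality were checked in the same arrays. The hepatocyte markers Alb, Ttr and Apoa1 had levels of 14.3, 13.9 and 13.8 log2 units, near the top of the deposited range of 5.051 to 14.56. Of the 9 hepatocyte markers measured, 5 were higher and 4 lower by sign, and 1, Tat, was lower at limma's unadjusted p under 0.05 (-1.05 SDs, p 0.0481). At limma's unadjusted p under 0.05, Kupffer cell and macrophage markers had 0 of 12 genes and neutrophil markers 0 of 8, with 11 and 7 lower by sign (51.7% of all genes). After quantile normalization 3 of 12 macrophage and 6 of 8 neutrophil markers were lower (52.4% of all genes), and after centring 7 of 12 and 2 of 8 (7.39% of all genes). The counts after centring depend on the spread of the genes. Summed on a linear scale, the macrophage markers ran from 2593.8 to 2594.1 in both diets. Sinusoidal endothelial markers had 2 higher and 1 lower of 9, stellate cell markers 0 of 9, bile duct and T and NK cell markers 1 higher each of 6 and 7, and red blood cell markers 1 lower of 3. Adipocyte and skeletal muscle markers had 1 higher each, of 4 and 6. Over all genes, 2.59% were higher and 4.07% lower at that p. By sign as deposited, 6 of 9 endothelial, 7 of 9 stellate cell, 5 of 6 bile duct and 6 of 7 T and NK cell markers were higher (48.3% of all genes). After quantile normalization these were 7 of 9, 3 of 9, 2 of 5 and 3 of 7 (47.6% of all genes). The 3′ minus 5′ difference of the control probe sets, a measure of RNA integrity, was 0.52 SDs higher with MSE for Gapdh (exact two-sided permutation p 0.314) and 0.44 SDs higher for beta-actin (exact two-sided permutation p 0.392). The part of these measures in the chaperone values was not tested.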

How the data were processed

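Liver RNA of 16 mice was labelled with a 3′ in vitro transcription kit and hybridised to 1 array each, per the labels' protocols. The authors deposited log2-like values for 45101 probe sets (log base inferred from the range), and R 3.2.2 is named in the submitters' processing notes. How probes were summarized is not stated in those sources. The deposited table's false discovery rate estimates are a score, since some exceed 1, and its expression values matched the other deposited table within each diet (largest difference 0). Of the probe sets, 34958 named 1 gene, 932 several and 9211 were unlisted. Each gene was read from its brightest probe set by mean over 16 arrays. The diet contrast used limma 3.58.1 under R 4.3.3 (lmFit, eBayes, two-sided, Benjamini-Hochberg over 18194 genes, threshold 0.05, no covariate). Precision is set by the number of mice, since arrays hold no counts. On data simulated with these spreads, the share of altered genes called was 2.8% for a shift of 1 SD, 31.6% for 2 SDs and 88.4% for 3 SDs. Tables and permutations used Python 3.11.15, NumPy 2.4.6 and SciPy 1.17.1, and plots matplotlib 3.10.9.

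The members, lists and tests were chosen with earlier results of these data known. Values mouse by mouse are given for the 8 members with the smallest p and for Hspa1b, Hspa8, Hsp90aa1, Hspd1, Hspb1 and Dnajb1 by role (Hsf1 had no value). Those of Hsph1 and Fkbp5 were added after their values were seen. Of the other lists, up to 4 genes under an unadjusted p of 0.05 are named. The alternatives tried were centring on array medians, quantile normalization, only genes above the median level, robust estimation with an intensity trend, array weights, a replicate block, the mean of all probe sets, all probe sets, a threshold of 0.1 and leaving out each mouse.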

Additional observations from a re-analysis of the deposited data

Results flagged for a closer look

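A single mouse lay far from the rest of its diet in 5 of 78 groups of 8 values, judged by Dixon's ratio of gap to range at its 95% limit, which chance exceeds in about 1 of 20 groups. The ratio was 0.673 for Hspa1a in MSE replicate 1 and 0.557 for Hspa1a in normal-diet replicate 1, both high. It was 0.531 for Hspa9 and 0.551 for Hspb8, both low in normal-diet replicate 1. It was 0.607 for Trap1, low in normal-diet replicate 3.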

How the results depend on the processing

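No chaperone gene was called under any alternative run, and leaving out single mice gave 0 throughout, with 0 to 2 genes called over all genes. Over all genes, 3 were called after quantile normalization, and 1 each with the genes above the median level, with the replicate block and at a threshold of 0.1. The count of chaperone genes higher at an unadjusted p under 0.05 was 2 after quantile normalization, 1 with array weights and 1 with the replicate block, and ran from 1 to 7 when single mice were left out. The count lower was 0 after quantile normalization and 0 after centring, and 2 to 4 without single mice. Centring left 3 chaperone genes lower by sign. Dnaja2 reversed to 0.47 after quantile normalization and 0.35 after centring, and Hspb6 to 0.0895 after centring. For co-variation, Hspa8 and Hsph1 weakened to an r of 0.46 (permutation adjusted p 0.109) with the mean of probe sets. Hsp90aa1 and Hsph1 weakened to an r of 0.58 (permutation adjusted p 0.0633) after quantile normalization, which also turned Hsph1 and Cirbp to an r of 0.29. The causes were not tested, apart from the common shift of centring. Same-numbered mice of the 2 diets were not paired by the labels, their deviations correlated at -0.03 to 0.22, and 5 of 8 MSE mice correlated best with their own number, as a hint from the data only. Quantile normalization gave no value for Hspd1 and Hspa8, nor for the gene pairs that hold them.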
